A study of Mus musculus with 10 samples.

Results

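The semaphorins, the plexins and neuropilins through which cells receive them, and the plexin domain containing genes Plxdc1 and Plxdc2 were examined by RNA-seq in cells sorted from the mouse embryonic spinal cord. The members were 20 semaphorins, 9 plexins, 2 neuropilins, Plxdc1 and Plxdc2, together 33 of the 48975 genes with counts. They were listed because Sema3d and Plxdc2 were lower in the mutant cells, so the difference of these 2 genes is described without a test. The question was whether the other 31 genes, called relatives here, shared it. After a filter on low counts 32 members, of which 30 relatives, remained among the 17840 genes tested. Plxnb3 was the member that did not pass.

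All embryos were at e10.5 and carried Olig2-Cre+/- and the reporter Rosa26R-YFP+/-. The 5 control samples were Oc1+/Flox and Oc2+/Flox. The 5 cdKO samples (conditional double knockout) were Oc1-/Flox and Oc2-/Flox, that is, with a null and a floxed allele of each Onecut gene. Controls therefore also carried Cre and a floxed allele of both genes. Olig2 is active in motor neuron progenitors, and YFP marks these cells and their descendants, including some V3 interneurons ventral to the motor neurons. The labels do not say whether a sample is an embryo or a pool of embryos, so the p-values measure the spread between these samples.

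Semaphorins are secreted or membrane-bound proteins that steer growing axons, mostly by repulsion. Secreted class 3 semaphorins bind neuropilins, which have no signalling domain of their own and form receptors with class A plexins, whereas most membrane-bound semaphorins bind plexins directly. Plexins act through a GTPase-activating domain on small GTPases and so on the cytoskeleton. In motor neurons this system is known for keeping cell bodies inside the spinal cord, for bundling axons and for guiding them into the dorsal or ventral limb. Plxdc1 and Plxdc2 encode transmembrane proteins named after a domain they share with plexins.

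The depth was 63932395 to 107709534 deposited counts per control sample and 72315782 to 84249157 per cdKO sample. They are counts of reads on exon parts, and a read was counted on every part it touched, so they exceed the reads. Exon 1 of Oc1 held 63 to 210 counts in controls and 0 to 17 in cdKO samples. Over all its exons Oc1 held 235 to 733 counts in controls and 81 to 288 in cdKO samples, so these groups overlapped. Oc3, which depends on Oc1 and Oc2, held 29 to 68 counts in controls and 0 to 3 in cdKO samples. Oc2 was not part of this check. The summed level of 8 motor neuron markers was 531 to 693 CPM (counts relative to the TMM-scaled library size) in controls and 309 to 791 in cdKO samples. Of the 8, 4 had a log2 fold change below 0 and 4 above, the lowest being Isl1 (-0.82, SE 0.31). The groups of Isl1 overlapped, at 135 to 347 CPM in controls and 95.8 to 164 CPM in cdKO samples. CdKO sample 5 had counts on 198569 exon parts against 243970 to 271591 in the other 9 samples, and its coverage was shifted towards the 3′ end. Of the 1120 exon parts of the members, 377 (33.7%) held counts in cdKO sample 5 and 604 (53.9%) in control sample 5, against 844 to 953 in the other 8 samples. Results for some members are therefore also given without these libraries.

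Sema3d, a secreted class 3 semaphorin that acts on axons and on endothelial cells, was lower in all 5 cdKO samples than in any control sample. In control samples 1 to 5 its level was 17.4, 8.27, 20.1, 37.4 and 9.18 CPM. In cdKO samples 1 to 5 it was 2.34, 2.69, 5.98, 7.26 and 1.52 CPM. The lowest control sample lay just above the highest cdKO sample, and samples numbered 4 were the highest of both groups. Such a separation, here the reason for choosing the gene, was seen in 0.224% of all genes tested in that direction. Mutant samples averaged 21.4% of the control level (3.96 ± 2.51 CPM against 18.5 ± 11.8 CPM, mean ± SD, n = 5), and the log2 fold change was -2.22 with an SE of 0.53, the 30th lowest of the 17840 genes tested. With each sample left out in turn it lay between -2.61 and -1.82. In bulk RNA, fewer cells that express Sema3d and less Sema3d RNA per cell cannot be told apart.

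The lower counts of Sema3d lay along the whole gene, which spans chr5:12383385-12588948 (GRCm38, + strand). Its exons were merged into 20 regions numbered from the 5′ end, of which 19 held counts in controls. All 19 were lower in cdKO samples, at 11.3% to 27.8% of the control mean (median 21.3%), and in 8 of them the groups did not overlap. The last region held 29.8% of the counts in controls and 27.7% in cdKO samples. In cdKO sample 5, 14 of the 20 regions held no count, so its value rests on 6 regions, whereas each other sample had counts on at least 20 of the 24 exon parts of the gene.

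The sequence around the start of Sema3d is shown because the genes deleted here encode DNA-binding factors and Sema3d was the member with the largest difference. It covers chr5:12382916-12383215 on the + strand (RefSeq promoter on GRCm38.p6), and capitals mark the bases from the RefSeq start at 12383166 onwards, which lies upstream of the gene start in the exon annotation. The second sequence, from Sema6d at chr2:124089799-124089858 (+ strand), is a stretch of the only one of the 37 promoters of 26 members that holds ATTGAT or its reverse complement ATCAAT, the core letters bound by Onecut proteins. Capitals in it mark the match, which lies 143 bases before the start.
Sema3d: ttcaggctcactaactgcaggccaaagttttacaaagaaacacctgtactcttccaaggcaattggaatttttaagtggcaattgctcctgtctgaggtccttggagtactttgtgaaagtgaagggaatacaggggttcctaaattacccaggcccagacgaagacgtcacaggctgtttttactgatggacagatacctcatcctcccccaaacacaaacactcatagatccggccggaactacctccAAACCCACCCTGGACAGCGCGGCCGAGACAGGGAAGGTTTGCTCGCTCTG
Sema6d: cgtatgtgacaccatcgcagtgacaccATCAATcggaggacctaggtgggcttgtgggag
The window of Sema3d does not hold these letters. No promoter of Plxdc2, Plxdc1, Sema3b, Sema3f, Sema6a, Plxna1 or Plxna4 was among those searched. Both strands were searched, and 2477 of 32851 promoters of the same 300 bases (7.54%) hold them, against 1 of 37 (2.70%) of the members' promoters.

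Plxdc2 was lower in every cdKO sample than the control mean, with a smaller difference than Sema3d. Its level was 9.26, 3.73, 6.83, 7.97 and 2.59 CPM in control samples 1 to 5 and 1.8, 2.32, 3.32, 2.44 and 2.13 CPM in cdKO samples 1 to 5. The groups overlapped because control sample 5, the lowest control, lay below cdKO sample 3. Over replicates 1 to 4, a subset chosen after seeing the data, they did not overlap. Such a separation was seen in 0.987% of all genes tested in that direction, and Plxdc2 was chosen for its fall. The log2 fold change was -1.34 with an SE of 0.39, and between -1.53 and -1.14 with each sample left out. All 14 exon regions of Plxdc2 (chr2:16356304-16755839, + strand) were lower in cdKO samples, at 24.9% to 68.1% of the control mean, with the highest share in the last region. In that region cdKO sample 5 was as high as the highest controls.

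**Figure D1:**
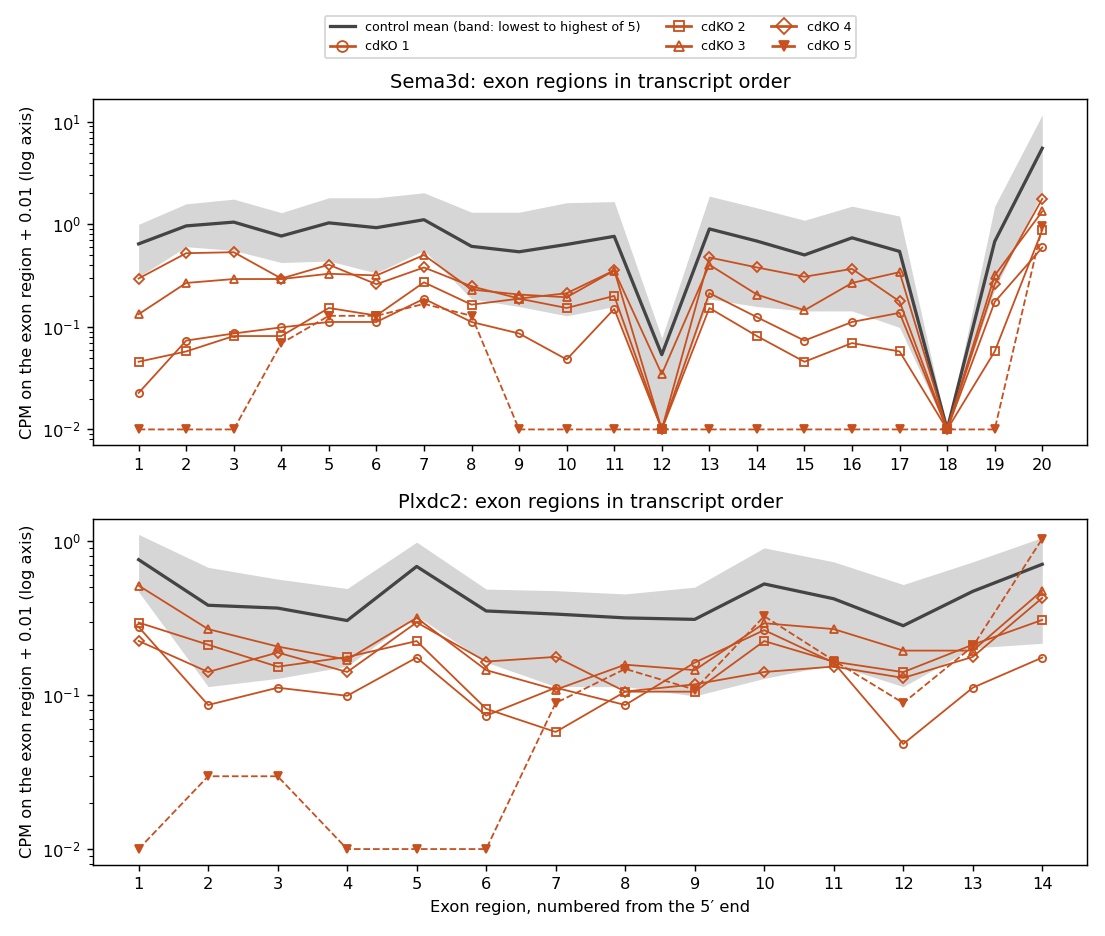
CPM plus 0.01 on a log axis for each exon region of Sema3d (20 regions) and Plxdc2 (14 regions), numbered from the 5′ end. The band spans the 5 control samples, the grey line is their mean, and each orange line is a cdKO sample; values at the bottom of the Sema3d panel are regions without a count, 14 of 20 in cdKO sample 5 (dashed).

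No relative passed the test for a difference between control and cdKO cells. With edgeR's quasi-likelihood test, 0 of the 30 relatives tested passed an adjusted p of 0.05 (smallest adjusted p = 0.938 after Benjamini-Hochberg adjustment). Over all genes tested the share that passed was 0%, although 4.99% of them had an unadjusted p under 0.05. Of the latter 83.7% were higher in cdKO samples, a share that was 60.2% with scaling by library size alone and 25.5% without cdKO sample 5. The DESeq2 Wald test called 19 genes (0.0643%) and limma-voom 3 (0.0168%) in the whole table, and none of these was a relative. Without adjustment 0 relatives had p under 0.05, against 0.813% of all genes in the direction lower in cdKO and 4.18% in the direction higher. In 0 relatives did the groups fail to overlap, against 0.409% of all genes (0.224% lower and 0.185% higher in cdKO). The log2 fold change was below 0 in 19 of 30 relatives (63.3%), against 51.8% of all genes, and its median was -0.036 against -0.018. Without control sample 5 it was below 0 in 24 of the 30, with a median of -0.26 against -0.0074 for all genes, and without cdKO sample 1 in 22, with a median of -0.26 against -0.050. With both samples numbered 5 left out it was below 0 in 22, with a median of -0.24 against 0.0044. Without control sample 4 or cdKO sample 2 it was below 0 in 12 and 11 relatives, and the medians were 0.069 and 0.068. The balance of directions among the relatives thus moved with single samples. In 2 relatives, Sema6a and Plxna2, all 5 cdKO samples lay below the control mean. The share of all genes with this pattern was not counted.

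The precision differed among relatives, with an SE of the log2 fold change from 0.31 to 1.05 (median 0.47). For 13 of the 30 relatives the 95% interval lay entirely above -1, so a difference of that size or larger, in the direction of Sema3d, was outside it. For the others it was inside the interval, and for 10 of the 30 the interval lay within 1 on either side of 0.

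**Figure D2:**
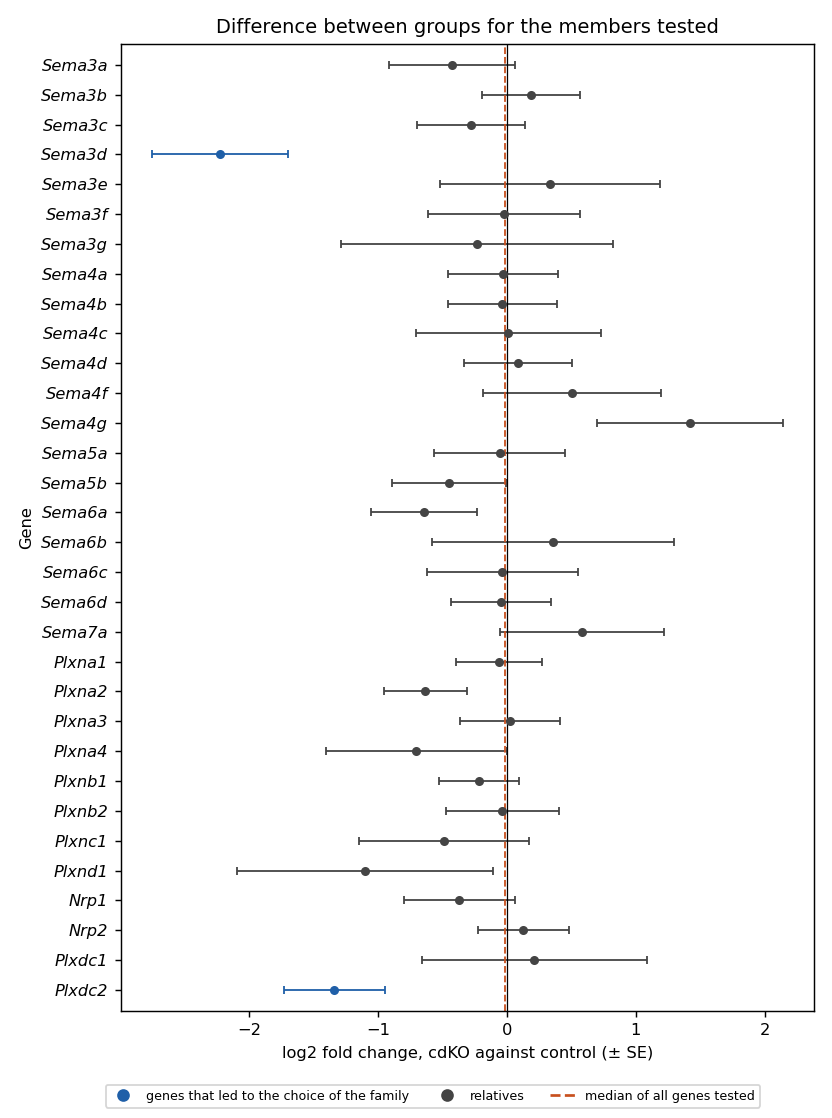
Log2 fold change (cdKO against control, n = 5 each) with its SE for the 32 members tested. Sema3d (-2.22) and Plxdc2 (-1.34), in blue, were the reason for listing the family and are shown without a test; the relatives lie on both sides of the median of all genes (dashed line, -0.018), from Plxnd1 (-1.10) to Sema4g (1.42).

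Among the other class 3 semaphorins, 4 of 6 had a log2 fold change below 0, the lowest being -0.43 for Sema3a. Sema3a, a repellent that binds Nrp1, was measured at 9.16, 4.58, 11, 13.3 and 1.77 CPM in controls and 3.10, 5.83, 7.05, 9.53 and 4.14 CPM in cdKO samples. The groups overlapped over most of their range, and the log2 fold change was -0.43 with an SE of 0.49. Sema3a, Sema3c, Sema3d and Sema3e are all on chromosome 5, in the order Sema3d, Sema3a, Sema3e and Sema3c. Sema3c, which binds both neuropilins, was at 30.4, 8.89, 16.6, 21.9 and 9.20 CPM in controls and 11.5, 9.99, 27.2, 14.3 and 8.70 CPM in cdKO samples. Its groups overlapped throughout (log2 fold change -0.28, SE 0.42), and in cdKO sample 5 only 7 of its 26 exon parts held counts.

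Sema3f, a ligand of Nrp2, had 25.9, 48.7, 27.6, 40.5 and 3.96 CPM in controls and 46.5, 25.6, 30.1, 37.5 and 4.98 CPM in cdKO samples. Both samples numbered 5 were far below the others, and the group means were nearly equal (log2 fold change -0.021, SE 0.59). Sema3b lay between 2.36 and 5.77 CPM in controls and between 2.30 and 6.92 CPM in cdKO samples. Sema3e, which binds Plxnd1 without a neuropilin, and Sema3g were rare. Sema3e lay between 0.268 and 1.57 CPM in controls and between 0 and 2.46 CPM in cdKO samples, and Sema3g between 0 and 1.01 CPM and between 0 and 0.748 CPM. A count of 0 allows up to 3 counts, which is 0.0288 to 0.0591 CPM depending on the sample and covers counting error only.

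The 6 class 4 semaphorins, which span the membrane and mostly signal through class B plexins, did not move in a common direction. Their log2 fold changes ran from -0.036 to 1.42, with 2 below 0. Sema4c, a ligand of Plxnb2, was the most abundant of the class per length. It was at 27.7, 44.3, 23.7, 56.1 and 1.14 CPM in controls and 46.2, 26.9, 34.1, 41.8 and 4.90 CPM in cdKO samples, so that the samples numbered 5 were again the lowest of each group. Sema4d, the ligand of Plxnb1, lay between 1.49 and 9.17 CPM in controls and between 4.39 and 9.24 CPM in cdKO samples. Sema4a (log2 fold change -0.029, SE 0.42) and Sema4b (-0.036, SE 0.42) had overlapping groups with nearly equal means. Sema4f reached 12.2 CPM in cdKO sample 1 and lay between 0.399 and 4.96 CPM in all other samples.

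Sema4g had the smallest unadjusted p of the relatives and pointed upwards, opposite to Sema3d. This membrane-spanning ligand was at 0.572, 0.393, 0.387, 0.651 and 0.827 CPM in controls and 1.45, 0.428, 0.160, 0.906 and 4.67 CPM in cdKO samples. CdKO sample 5 was the highest of all and cdKO sample 3 the lowest of all, and without sample 5 the log2 fold change was 0.39. In the edgeR quasi-likelihood test the log2 fold change was 1.42 (SE 0.72, adjusted p = 0.938 after Benjamini-Hochberg adjustment). The 95% interval ran from -0.13 to 2.97, and an exact permutation test over all arrangements of the samples gave p = 0.365 (two-sided).

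Class 5 and class 6 semaphorins also span the membrane, and those of class 6 bind class A plexins directly. Sema5b was among the most abundant members, with 57.6, 86.7, 45.9, 105 and 25.6 CPM in controls and 69.6, 42.0, 54.8, 54.6 and 13.8 CPM in cdKO samples. The samples numbered 5 were the lowest of each group, and the log2 fold change was -0.45 with an SE of 0.44. Sema5a was rare, at 0.621 to 2.03 CPM in controls and 0.381 to 2.32 CPM in cdKO samples.

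Sema6a, a ligand of Plxna2 and Plxna4, was measured at 51.8, 45.5, 53.4, 106 and 20.4 CPM in controls and at 33.9, 42.4, 36.6, 48.6 and 15.5 CPM in cdKO samples. Every cdKO sample lay below the control mean, but control sample 5 was below 4 of the 5 cdKO samples. The log2 fold change was -0.65 (SE 0.41, adjusted p = 0.966, edgeR quasi-likelihood test with Benjamini-Hochberg adjustment), with a 95% interval from -1.53 to 0.24, and the exact permutation p was 0.278 (two-sided). With both samples numbered 5 left out, a choice made after seeing the data, it was -0.68 with an unadjusted edgeR p under 0.05, in a fit where 1.52% of all genes had such a p in that direction.

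Sema6c and Sema6b were higher in cdKO sample 1 than in any control sample and low in the samples numbered 5. Sema6c was at 56.7, 69.4, 41.8, 62.1 and 4.86 CPM in controls and 85, 30.2, 56.7, 44.5 and 12.7 CPM in cdKO samples. Sema6b was at 7.39, 14.6, 4.91, 8.23 and 0.0591 CPM in controls and 19.3, 4.5, 12.5, 8.38 and 0.335 CPM in cdKO samples. The value of control sample 5 rests on 4 counts. Sema6d, a ligand of Plxna1, lay between 3.83 and 17.7 CPM in controls and between 6.36 and 14.4 CPM in cdKO samples, and the GPI-anchored Sema7a, a ligand of Plxnc1, reached at most 0.668 CPM.

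Among the receptors, Plxna2 was the relative nearest to a difference in the direction of Sema3d. It was at 22.5, 28.1, 25.5, 57.5 and 33.6 CPM in controls and 14.1, 23.7, 18.8, 29.7 and 21.6 CPM in cdKO samples. All cdKO samples were below the control mean, and cdKO samples 2 and 4 were above the lowest control sample. The log2 fold change was -0.63 (SE 0.32, 95% interval -1.33 to 0.06, adjusted p = 0.938, edgeR quasi-likelihood test with Benjamini-Hochberg adjustment). The exact permutation test gave p = 0.0714 (two-sided, where the smallest p possible is 0.00794), the smallest of the relatives. The difference of Plxna2 was therefore not larger than the spread between samples allows by either test.

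Of the other class A plexins, which form receptors with neuropilins, Plxna1 and Plxna3 had nearly equal group means. Plxna1 lay between 15.5 and 44.3 CPM in controls and between 23.1 and 48.5 CPM in cdKO samples, and 28.5% of its counts fell on exon parts shared with Gm26811, a gene of the opposite strand, from which unstranded reads cannot be told apart. Plxna3 lay between 5.33 and 19.9 CPM and between 6.13 and 17.8 CPM. Plxna4 varied most within the groups, at 6.59, 2.83, 0.955, 3.93 and 1.08 CPM in controls and 0.152, 1.27, 1.5, 2.65 and 3.92 CPM in cdKO samples (log2 fold change -0.70, SE 0.70). Here cdKO sample 5 was the highest cdKO sample, and the log2 fold change was -1.15 without it and -1.38 with both samples numbered 5 left out (SE 0.73).

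The class B plexins Plxnb1 and Plxnb2, receptors of class 4 semaphorins, were abundant, and for both the 95% interval of the log2 fold change lay within 1 on either side of 0. Plxnb2 was at 53.7, 88.3, 59.6, 94.6 and 28.2 CPM in controls and 106, 62.9, 65.3, 65.3 and 16.6 CPM in cdKO samples. Plxnb1 was at 26.4, 49.9, 25.3, 49.8 and 25.3 CPM in controls and 44.5, 25.7, 26.4, 28.1 and 27.2 CPM in cdKO samples. Its log2 fold change of -0.22 had the smallest SE of the relatives (0.31), with a 95% interval from -0.88 to 0.45. Plxnb3 had 8 counts in control sample 1, 6 in cdKO sample 1, 1 in control sample 3 and 0 elsewhere, and no difference could be detected at this depth.

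Plxnc1, the receptor of Sema7a, was even among controls and uneven among cdKO samples. It was at 4.01, 3, 2.59, 3.34 and 3.62 CPM in controls and 0.216, 2.26, 1.90, 6.77 and 0.650 CPM in cdKO samples, so that 4 of 5 cdKO samples were below every control and cdKO sample 4 was above every control. The log2 fold change was -0.49 with an SE of 0.66. Without cdKO sample 4, the only setting in which Plxnc1 had an unadjusted edgeR p under 0.05, it was -1.43 (adjusted p = 0.647). Plxnd1, the receptor of Sema3e, had the lowest log2 fold change of the relatives (-1.10, SE 0.99), with 0.0295 to 1.12 CPM in controls and 0 to 0.602 CPM in cdKO samples.

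The neuropilins, through which class 3 semaphorins including Sema3d act, were both abundant. Nrp1 was at 67.2, 23.6, 63.5, 87.1 and 14.8 CPM in controls and 35.8, 26.3, 44.0, 53.5 and 38.6 CPM in cdKO samples. The cdKO samples lay within the range of the controls, and the log2 fold change was -0.37 (SE 0.43, 95% interval -1.30 to 0.56). Nrp2 was at 16.6, 18, 20.3, 35.8 and 8.55 CPM in controls and 20.9, 17.6, 18.8, 19.6 and 31.7 CPM in cdKO samples, with a log2 fold change of 0.13 (SE 0.36). CdKO sample 5 was the highest cdKO sample and control sample 5 the lowest control. For Nrp2 the log2 fold change was -0.066 without control sample 5, -0.051 without cdKO sample 5, -0.25 with both left out and -0.091 with scaling by library size alone, so no direction was established. Plxdc1, the closest relative of Plxdc2 by name, was rare, with 0 to 29 counts in controls and 4 to 31 in cdKO samples. It was at 0 to 0.291 CPM in controls and 0.0491 to 0.394 CPM in cdKO samples, and its log2 fold change of 0.21 had an SE of 0.87.

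**Figure D3:**
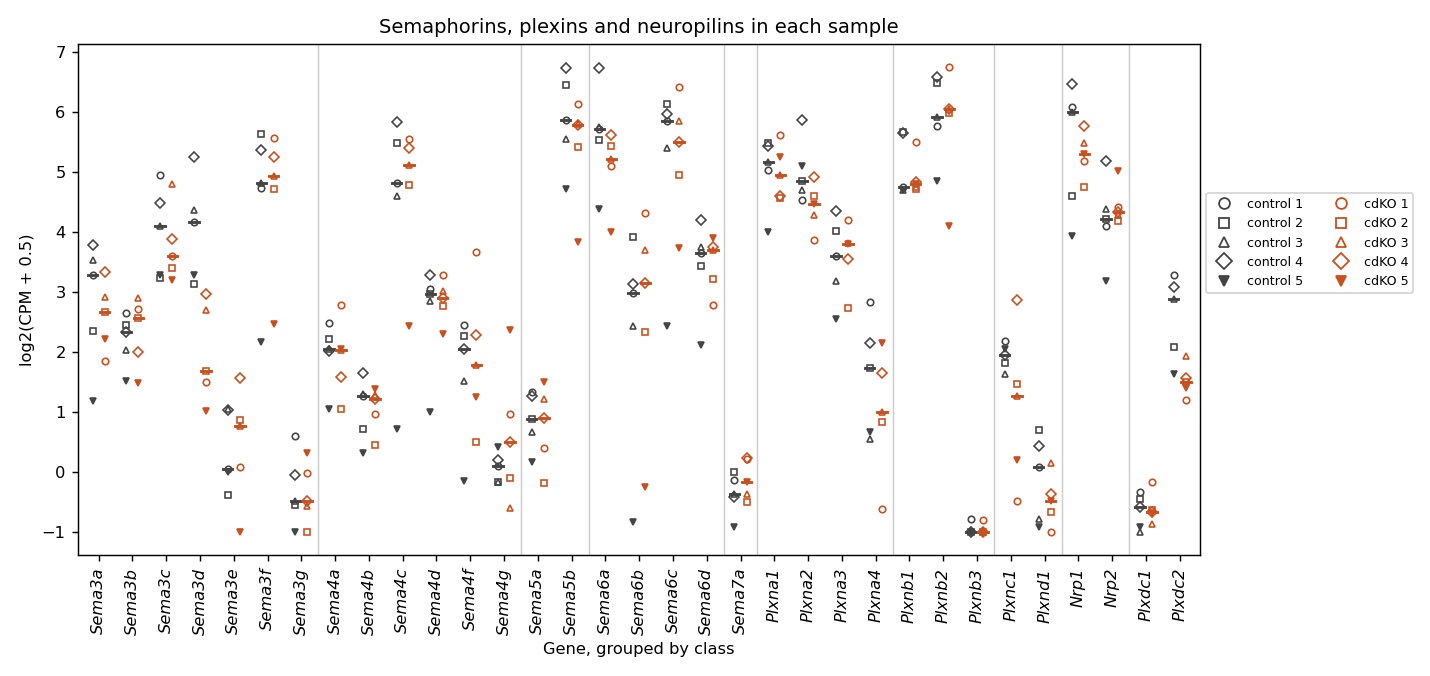
Level of each of the 33 members in each sample as log2(CPM + 0.5), grouped by class, with control samples in grey and cdKO samples in orange. Bars are group medians (n = 5) and filled triangles are the samples numbered 5; Sema3d is the only member in which the groups do not overlap.

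The members covered a wide range of levels in control cells. To compare genes, CPM were divided by the length of the exon parts of each gene in kilobases. The highest were Plxnb2 (9.11 ± 3.80 CPM per kb, mean ± SD, n = 5), Sema5b (9.06 ± 4.49), Sema6c (7.92 ± 4.32), Sema4c (6.66 ± 4.57) and Sema6a (6.31 ± 3.54 CPM per kb). Plxnb2 and its ligand Sema4c, and Sema6a and its receptors, were thus measured in the same sorted population. Sema3d was the 11th highest in controls (2.15 ± 1.37 CPM per kb) and the 20th in cdKO samples (0.460 ± 0.292 CPM per kb), and Plxdc2 was the 19th and the 22nd. Below Sema7a, in the order of control levels, came Sema3g, Plxnd1, Plxdc1 and Plxnb3. In all 32 pairs of neighbours in this order the ranges of the control samples overlapped, so the order is firm only between genes far apart.

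**Figure D4:**
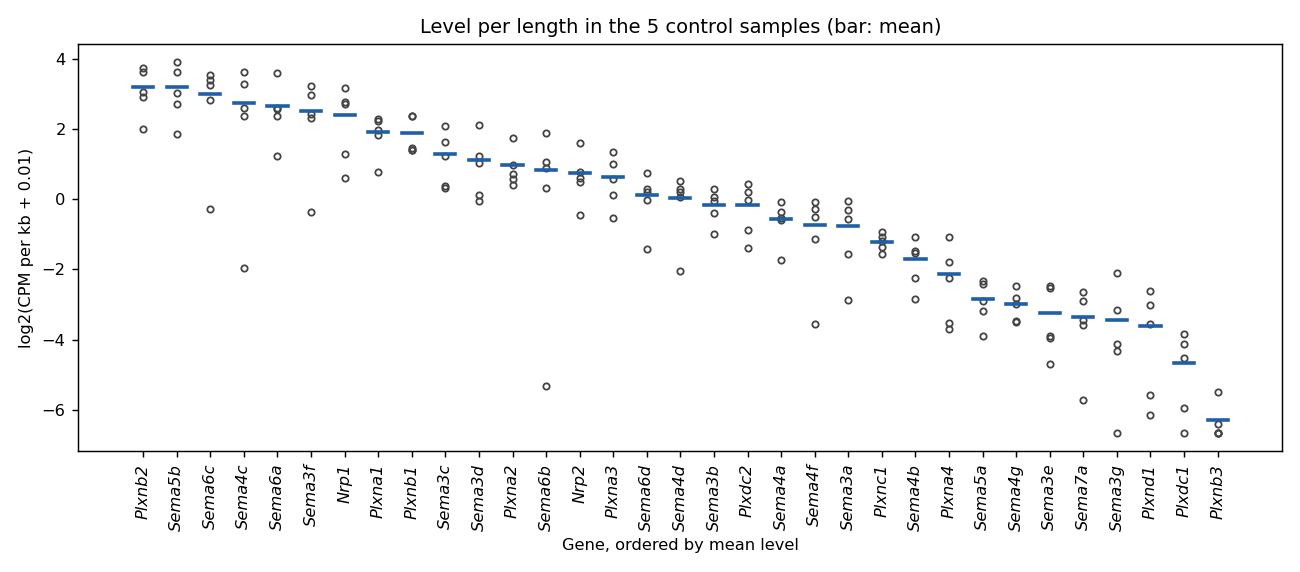
Level per length in the 5 control samples, as log2(CPM per kb + 0.01), with members ordered by their mean (blue bar). Plxnb2 and Sema5b are highest at 9.11 and 9.06 CPM per kb, Sema3d is 11th, and neighbouring genes overlap throughout.

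Control sample 5 was low for many members. It was the lowest control sample in 22 of the 30 relatives tested (73.3%), against 31.3% of all genes tested, whereas cdKO sample 5 was the lowest cdKO sample in 11 (36.7%), against 37.5% of all genes. Both were lowest in 9 of the 30, against 18.6% of all genes tested. The 9 include Sema3f, Sema4c, Sema5b, Sema6a, Sema6c and Plxnb2. These samples stood apart in other values too. The Hox genes of lumbar levels summed to 0.993 CPM in control sample 1 and 1.39 CPM in control sample 5, against 36.2 to 57.0 CPM in the other controls and 15.2 to 104 CPM in cdKO samples, and the V3 list summed to 102 CPM in control sample 5 against 29.5 to 37.9 CPM in the other controls. Of that sum 84.5 CPM came from Nkx2-9 and 15.1 CPM from Nkx2-2, and both genes were highest of all controls in this sample. The V3 markers Sim1 (0.148 CPM) and Neurog3 (2.69 CPM) were instead lowest of all controls in it. The part of these differences in the values of the members was not tested. Sema3d in control samples 1 and 5 (17.4 and 9.18 CPM) was above every cdKO sample, as in all controls, a separation for which the gene was chosen.

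**Figure D5:**
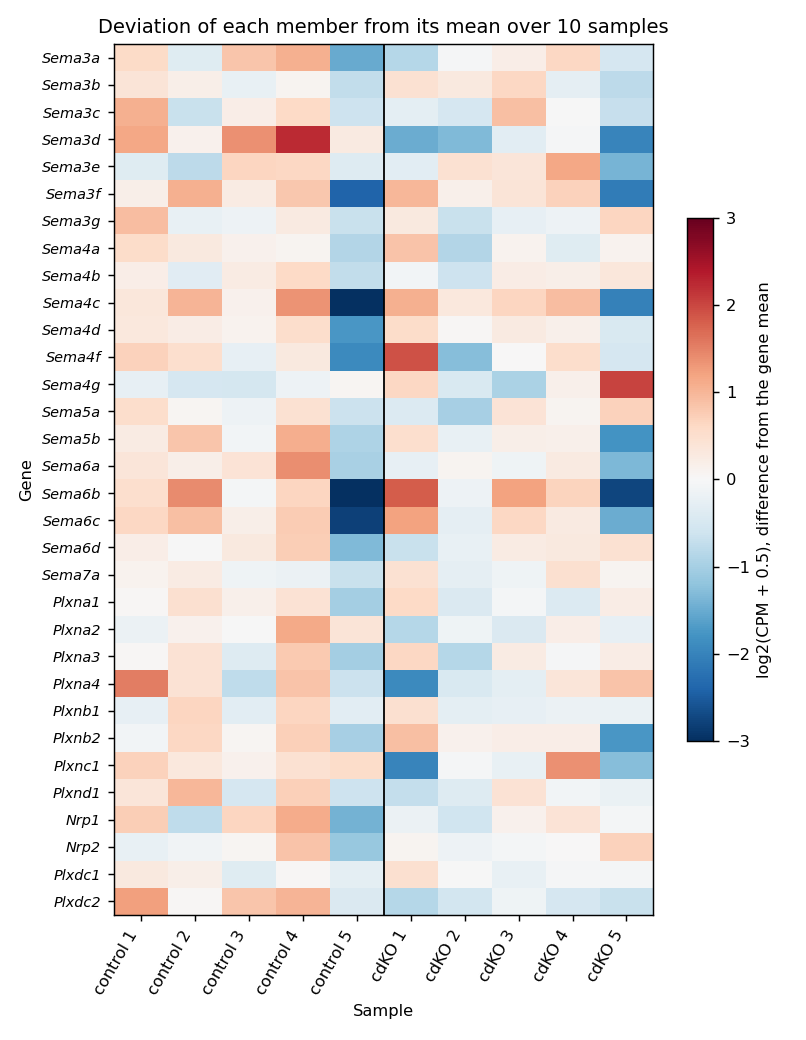
Difference of each of the 32 members tested from its own mean over the 10 samples, on the log2(CPM + 0.5) scale, with colours that stop at 3 above and below 0. Control samples are left of the line; control sample 5 is below the gene mean for most members, and Sema3d is above it in all controls and below it in the cdKO samples except sample 4, where it is near the mean.

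Other cell types that express semaphorins and plexins were followed through marker lists, and the summed levels of those given here overlapped between groups. The 8 endothelial markers, of interest because Sema3d, Nrp1 and Plxnd1 act in vessels, summed to 1.72 to 4.30 CPM in controls and 2.25 to 4.10 CPM in cdKO samples, and the defining gene Cdh5 was at or near 0 in every sample. The 8 mesenchyme markers summed to 8.67 to 20.6 CPM in controls and 11.9 to 23.5 CPM in cdKO samples. Of those tested, 6 of 7 mesenchyme and 5 of 6 endothelial markers had a log2 fold change above 0 (medians 0.54 and 0.29). The 7 macrophage markers summed to 3.17 to 5.31 CPM and 3.28 to 6.95 CPM, nearly all from Csf1r. The 6 erythroid markers summed to 0.872 to 18.5 CPM in controls, to 53.5 and 63.2 CPM in cdKO samples 3 and 5 and to 2.59 to 10.4 CPM in the other cdKO samples. All 5 erythroid genes tested had a log2 fold change above 0 (median 2.10). The 4 markers of V2 interneurons, which arise outside the motor neuron domain, summed to 1 to 11.5 CPM in controls and 3.49 to 14.6 CPM in cdKO samples, and all 4 had a log2 fold change above 0 (median 0.63). The 5 motor neuron progenitor markers summed to 150.4 to 269 CPM in controls and 111 to 231 CPM in cdKO samples, and all 5 had a log2 fold change below 0 (median -0.28). The 6 Hox genes of brachial levels summed to 95.1 to 152 CPM and 73.7 to 197 CPM, with 3 below and 3 above 0. All 7 Hox genes of lumbar levels had a log2 fold change above 0 (median 0.95). Their sum was 0.993 and 1.39 CPM in control samples 1 and 5, against 36.2 to 57.0 CPM in the other controls. In cdKO samples it was 15.2 to 55.5 CPM in samples 1 to 4 and 104 CPM in sample 5. Of all genes tested, 51.8% had a log2 fold change below 0. The part of these cells in the values of the members was not tested.

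Other genes of semaphorin signalling were read from a list of 43, of which 42 were tested. With edgeR 0 of these passed an adjusted p of 0.05 after Benjamini-Hochberg adjustment, as did 0% of all genes tested. Of the 42, 25 had a log2 fold change below 0, against 51.8% of all genes. The median was -0.094 against -0.018. The CRMP proteins that relay semaphorin signals to microtubules (Crmp1 and Dpysl2 to Dpysl5) had a median log2 fold change of 0.053, and the GTPases and their regulators -0.19. Without adjustment 1 gene was lower and 1 was higher at p under 0.05, against 0.813% and 4.18% of all genes tested. The lower one was Met, a receptor tyrosine kinase that associates with class B plexins. It was at 3.64, 1.30, 1.42, 3.78 and 0.680 CPM in controls and 0.660, 0.167, 1.22, 0.477 and 1.24 CPM in cdKO samples.

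Every cdKO value of Met lay below every control value but that of control sample 5. Over replicates 1 to 4, a subset chosen after seeing the data, its groups did not overlap. The same held for 0.987% of all genes tested in that direction, and Met was named for its unadjusted p. The log2 fold change was -1.53 (SE 0.61, adjusted p = 0.938, edgeR quasi-likelihood test with Benjamini-Hochberg adjustment). The higher gene was Cdk5r1, the activator of the kinase Cdk5, with 1.33 to 5.19 CPM in controls, 2.30 to 4.56 CPM in cdKO samples 1 to 4 and 42.0 CPM in cdKO sample 5. Its log2 fold change of 1.6 rested on that sample and was 0.015 without it.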

How the data were processed

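RNA-seq was analysed in 5 control and 5 cdKO samples of YFP-positive cells, grouped by the sample titles. The authors deposited raw counts for each non-overlapping exon part (bin), as whole numbers. Per the labels, reads were paired, 150 bases long and sequenced, and the submitters' processing notes name bcl2fastq 2.17, Trimmomatic 0.36, STAR 2.5.2b, Subread 1.5.2, DESeq2 and the build GRCm38. Each read added to all bins it touched, and strand was not used. Sample descriptions give differing embryonic days. The day in the titles and the growth protocol was used.

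Bins were summed per gene with GENCODE M21, and 3974 bins that several genes share, with 1.17% of the counts, were left out. Genes passing filterByExpr (minimum count 10) entered edgeR 4.0.16 with TMM factors (quasi-likelihood test, Benjamini-Hochberg adjustment over 17840 genes, threshold 0.05) in R 4.3.3. The common biological coefficient of variation was 0.540. CPM use TMM-scaled library sizes. Exact permutation tests compared mean log2(CPM + 0.5) over all arrangements of the samples (scipy 1.17.1). Promoters come from RefSeq on GRCm38.p6. The fits were tested on simulated data with 100 genes changed 4-fold and 100 changed 2-fold. EdgeR called 47 and 1 of these and 2 unchanged genes, so it missed nearly all differences of 2-fold. DESeq2 called 73, 18 and 33, and limma-voom 44, 0 and 1. No samples of a group were duplicates (chi-square per degree of freedom 125 to 1977).

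The members, gene lists, rules and tests were chosen with earlier results of these data known. All members are named, and of the pathway list those with an unadjusted p under 0.05, at most 6. Alternatives were DESeq2 size factors, library size alone, no filter, limma-voom (limma 3.58.1), the Wald test of DESeq2 1.42.0, a replicate block, the single highest bin of each gene and each sample left out. Leaving out both samples numbered 5 was chosen after seeing the data. Some marker genes and the lists that rest on them are not reported here.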

Additional observations from a re-analysis of the deposited data

Results flagged for a closer look

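In 6 of the 66 groups of 5 samples examined (33 members in control and in cdKO samples), the highest sample stood apart from the others by Dixon's criterion, where chance gives about 1 in 20, that is 3.3 groups. Sema4g was at 4.67 CPM in cdKO sample 5, against 0.160 to 1.45 CPM in the other cdKO samples. Nrp2 was at 31.7 CPM in the same sample, against 17.6 to 20.9 CPM. Plxnb1 was at 44.5 CPM in cdKO sample 1, against 25.7 to 28.1 CPM. In that sample Plxdc1 was at 0.394 CPM, against 0.0491 to 0.143 CPM in the other cdKO samples. Plxnb3 was at 0.0803 CPM (8 counts) in control sample 1, against at most 0.0114 CPM in the other controls, and at 0.0762 CPM (6 counts) in cdKO sample 1, against 0 in the other cdKO samples. CdKO sample 5 had counts on 377 of the 1120 exon parts of the members, and its part in the values of Sema4g and Nrp2 was not tested.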

How the results depend on the processing

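Across 18 alternatives Sema3d lay between -2.61 and -1.82 and Plxdc2 between -1.53 and -1.14 (log2 fold change). The count of genes called over the whole table, 0 with edgeR, was 1 with library size alone, 1 without the filter, 19 with the DESeq2 Wald test, 3 with limma-voom, 4 with both samples numbered 5 left out and 0 to 4 with each sample left out. No alternative called a relative (smallest adjusted p = 0.647, edgeR without cdKO sample 4). Calls of Sema3d and Plxdc2 are not given, because these 2 genes led to the choice of the list. The relatives with an unadjusted p under 0.05 in the lower direction numbered 0 with edgeR and 0 to 2 with each sample left out, 1 with both samples numbered 5 left out (Sema6a) and 1 with the replicate block (Plxna2). In the higher direction they numbered 0 with edgeR, 1 with DESeq2 (Sema4g) and 0 to 1 with each sample left out. The samples whose removal brought such a p were control 1 (Plxna2, -0.75), control 5 (Sema6a, -0.86), cdKO 2 (Sema4g, 1.65), cdKO 3 (Sema4g, 1.70) and cdKO 4 (Plxna2, -0.81, and Plxnc1, -1.43). The median of the relatives lay between -0.26 (without control 5) and 0.069 (without control 4) with each sample left out and between -0.24 and 0.090 otherwise. Pathway genes with an unadjusted p under 0.05 numbered 0 to 3 (lower) and 0 to 1 (higher) with each sample left out, and in the higher direction 0 with the block and 0 with both samples numbered 5 left out. Of the 5 members with the highest level per length, 4 were kept when the read length was added to each exon part.

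The numbers of the samples were shared by both groups. The correlations of same-numbered samples were 0.078, -0.26, 0.11, 0.32 and 0.28, and 4 of 10 samples correlated best with their own number, so the numbers were not taken as pairs. With the replicate block Plxna2 had a log2 fold change of -0.59 (adjusted p = 0.915, edgeR), and 0 genes were called.

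The sign of 11 relatives held under every alternative in which they were fitted, and that of 19 turned at least once. With the single highest bin 26 relatives were fitted, without Sema3g, Sema7a, Plxnd1 and Plxdc1. With library size alone, which moved the median of all genes from -0.018 to -0.15, Sema4c turned to -0.093, Sema4d to -0.055, Plxna3 to -0.16 and Nrp2 to -0.091. With limma-voom Sema3e turned to -0.32, Sema3f to 0.061, Sema4b to 0.012, Sema6c to 0.14 and Sema6d to 0.035. With the replicate block Sema3e turned to -0.049, Sema3f to 0.053, Sema4b to 0.0063, Sema6c to 0.15 and Sema6d to 0.011. With the single highest bin Sema3c turned to 0.077, Sema3e to -0.056, Sema4a to 0.35, Sema4b to 0.33, Sema4c to -0.037, Sema5a to 0.62, Sema6d to 0.10, Plxna1 to 0.28 and Nrp1 to 0.11. With both samples numbered 5 left out Sema4c turned to -0.035, Sema4d to -0.054, Plxna3 to -0.21, Plxnb2 to 0.010 and Nrp2 to -0.25. The cause was not tested. With each sample left out, the ranges that crossed 0 were -0.66 to 0.020 for Sema3c, -0.23 to 0.65 for Sema3e, -0.30 to 0.24 for Sema3f, -0.80 to 0.57 for Sema3g, -0.36 to 0.16 for Sema4a, -0.23 to 0.15 for Sema4b, -0.30 to 0.31 for Sema4c, -0.17 to 0.21 for Sema4d, -0.32 to 0.77 for Sema4f, -0.35 to 0.18 for Sema5a, -0.13 to 0.81 for Sema6b, -0.38 to 0.20 for Sema6c, -0.27 to 0.13 for Sema6d, -0.25 to 0.050 for Plxna1, -0.17 to 0.24 for Plxna3, -0.31 to 0.21 for Plxnb2, -0.066 to 0.42 for Nrp2 and -0.38 to 0.64 for Plxdc1. Of all genes with an unadjusted p under 0.05, 83.7% were higher in cdKO with TMM, 60.2% with library size alone, 62.8% with the block and 25.5% without cdKO sample 5.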
